A study of Nezara viridula with 24 samples.

Results

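In the midgut of adult southern green stink bugs, Nezara viridula, 132 of 201329 Trinity genes fell in level stepwise, from the first midgut section (M1) through the second (M2) to the third (M3). A Trinity gene is a group of transcripts that the assembler Trinity built from the reads and placed together. Its level is given here in CPM, its count scaled to a fixed total for every library, with isoforms summed. For each gene, m1, m2 and m3 are the medians of the 6 libraries of a section, over both diets, plus 0.5 CPM. Members had an m1 of at least 20, an m1/m2 above 2 and an m2/m3 of at least 3. The limit of 300 members in the choice was not reached. The members were chosen by these measured levels, so the fall itself is described below and carries no test.

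RNA with poly(A) tails was sequenced from adults that had fed for 24 h after the moult on corn or on green bean. The tissues were the salivary glands and the 3 midgut sections. The 8 groups, a tissue on a diet, have 3 libraries each, and every library is a pool made from 4 to 10 insects. Nothing in the labels says that the pools came from separate cultures, so the p-values measure the spread between these pools, which may in part be technical. The sources used here do not give a strain.

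Stink bugs pierce plant tissue, inject saliva and suck up the loosened food. In insects of this family the midgut is a row of distinct sections, and the meal reaches M1 first and M3 after M2. Digestion and uptake take place along these sections, and cells of different sections make different enzymes and transporters. A change of a gene along the tube can reflect a different make-up of cells or a different amount of its RNA per cell, and libraries from whole sections cannot tell these apart.

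The tables give assembly identifiers, which they do not pair with gene names, so no function is assigned to any member and the labelled tissues were not checked against marker genes. CPM is not corrected for transcript length. An order of members by m1 is therefore an order of counts and says nothing about which gene had more RNA molecules. Midgut libraries held 17819164 to 33954593 estimated counts and gland libraries 19539652 to 25126353. Corn replicates 2 and 3 detected 38270 to 59476 genes in the midgut, fewer than corn replicate 1 (94335 to 122664) and the green bean libraries (64667 to 93477). The glands showed the same division, with 34833 and 37040 genes in corn replicates 2 and 3 and 79903 in corn replicate 1. Green bean glands had 64901 to 73741 genes. The labels do not name this division. Green bean M2 replicate 3 and green bean gland replicates 1 and 3 carried more of the members than the other libraries of their groups, and values that rest on them are given beside those of the other libraries.

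Together the members held a large share of all counts in M1 and little in M3. In corn M1 they held 10.4%, 11.6% and 12.8% of the counts in replicates 1 to 3, in corn M2 1.31%, 1.11% and 1.08%, and in corn M3 0.188%, 0.204% and 0.214%. In green bean M1 they held 13.2%, 11.9% and 9.65%, in green bean M2 1.32%, 1.41% and 2.57%, and in green bean M3 0.154%, 0.141% and 0.192%. The 3 sections did not overlap in this summed level, and within M2 the third green bean library stood apart above the other 5. The 23 members with an m1 of at least 1000 made up 81.2% of the summed level in M1, the 63 with an m1 from 100 to 1000 made up 16.3%, and the 46 below 100 made up 1.99%.

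**Figure D1:**
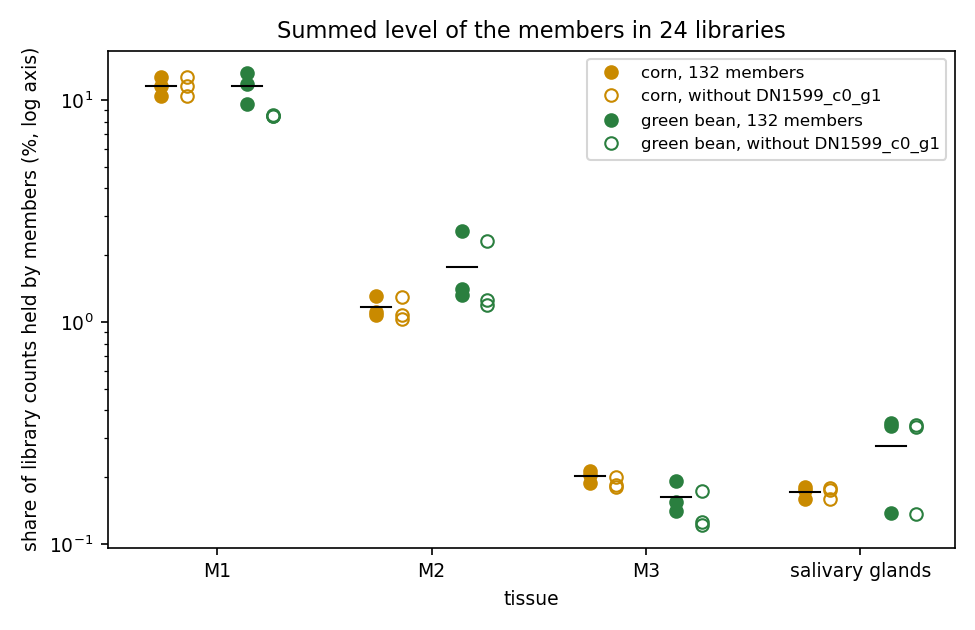
Share of each library's counts held by the members (%, log axis), by tissue, with one filled point per library, corn in ochre and green bean in green. Black bars are the means of 3 libraries, and open points leave out TRINITY_DN1599_c0_g1. The share is near 10% in M1, between 1.08% and 2.57% in M2 and at most 0.214% in M3.

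The members differed in which of the steps was the larger one. Over the 132 genes, m1/m2 ranged from 2.01 to 398 with a median of 5.79, and m2/m3 ranged from 3.01 to 205 with a median of 5.29. The step into M2 was the larger one for 63 members and the step into M3 for 69. The first step was at least 10-fold in 48 members and the second in 32, and 8 members passed 10-fold at both. Over both steps together, m1/m3 had a median of 45.4, with quartiles of 22.2 and 110 and a highest value of 1244. In M3, 41 members had a median under 1 CPM and 32 kept a median of at least 10 CPM. None was without a count in all 6 M3 libraries, and 4 were at 0 in at least 1 of them. For low members the 0.5 CPM added to each median limits the ratio that can be seen.

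**Figure D2:**
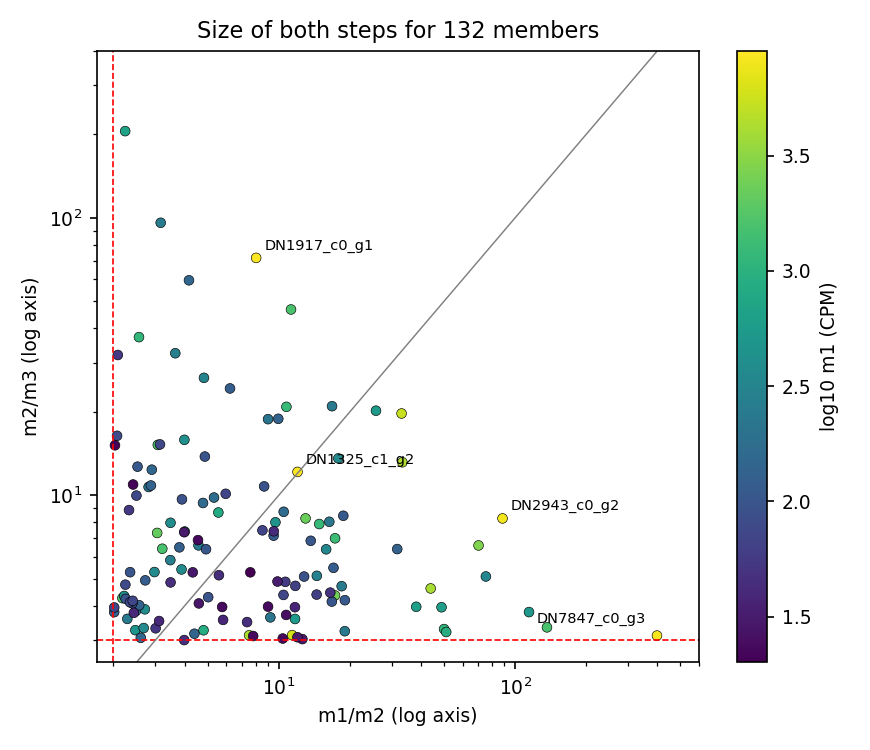
Ratio m2/m3 against m1/m2 for the 132 members (log axes), one point per gene, coloured by log10 of m1. Dashed lines mark the conditions of the choice at 2 and 3, and the grey line marks equal steps. Points lie on both sides of that line, 63 to its right and 69 to its left.

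The following examples at the top of the order by counts show these shapes. TRINITY_DN1917_c0_g1, the member with the highest m1, had 5647 CPM in its lowest M1 library, a median of 9015 and 15069 in its highest. In M2 its lowest, median and highest values were 590.3, 1123 and 1638 CPM, and in M3 they were 7.42, 15.2 and 36.9 CPM. No library of one section reached the next section, and the larger step was the one into M3 (m1/m2 of 8.03 and m2/m3 of 71.7).

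TRINITY_DN1325_c1_g2, next in m1, went from 3924, 8700.5 and 12098 CPM in M1 (lowest, median, highest) to 471.1, 724 and 2654 CPM in M2 and 31.3, 59.2 and 182 CPM in M3. Its sections did not overlap, and over both diets its steps were nearly equal, with an m1/m2 of 12.01 and an m2/m3 of 12.14. Within each diet the steps were unlike. On corn m1/m2 was 23.5 and m2/m3 was 3.67, and on green bean they were 2.08 and 48.5.

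The largest falls over both steps came mostly at the first one. TRINITY_DN7847_c0_g3 stood at 6924, 8258 and 11824 CPM in M1, at 11.4, 20.2 and 339 CPM in M2 and at 4.00, 6.14 and 8.99 CPM in M3, with an m1/m2 of 398 and an m2/m3 of 3.12. Without green bean M2 replicate 3, its highest M2 value was 21.3 CPM. TRINITY_DN2943_c0_g2 stood at 5474, 8055 and 11492 CPM in M1, at 15.6, 90.5 and 1622 CPM in M2 and at 8.15, 10.5 and 13.2 CPM in M3, with an m1/m2 of 88.5 and an m2/m3 of 8.26. In both genes the sections did not overlap, and the highest M2 value was again that of green bean replicate 3. On corn alone, m2/m3 was under 3 in both genes, at 1.484 in TRINITY_DN7847_c0_g3 and 1.605 in TRINITY_DN2943_c0_g2. Taken by diet, both genes thus met the conditions on green bean only. At the other end, TRINITY_DN1691_c2_g1, singled out after its values were seen, had the largest second step, an m2/m3 of 205 after an m1/m2 of 2.24. Taken by diet, it met the conditions on corn only.

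The shallowest members were TRINITY_DN4521_c0_g1 and TRINITY_DN1075_c0_g1, with an m1/m3 of 7.64 and 7.94. The first had 50.1, 119.9 and 226 CPM in M1 (lowest, median, highest), 17.4, 59.3 and 136 CPM in M2 and 8.83, 15.3 and 20.9 CPM in M3. The other had 47.7, 72.6 and 268 CPM in M1, 24.9, 35.8 and 63.0 CPM in M2 and 5.09, 8.70 and 37.3 CPM in M3. Neighbouring sections overlapped in both genes, so their order rests on the medians. Taken by diet, TRINITY_DN4521_c0_g1 met the conditions on neither diet and TRINITY_DN1075_c0_g1 on corn only.

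At the edges of the choice, members and excluded genes lay close together. TRINITY_DN1173_c0_g1 entered with an m1 of 20.02 and TRINITY_DN22520_c1_g1 stayed out with 18.8. TRINITY_DN4521_c0_g1 entered with an m1/m2 of 2.01, and TRINITY_DN1234_c0_g3 stayed out with 1.98. TRINITY_DN3959_c0_g1 entered with an m2/m3 of 3.01 and TRINITY_DN7847_c0_g1 stayed out with 2.92. The last of these belongs to the same assembly component as the member TRINITY_DN7847_c0_g3 and had a like first step, with an m1/m2 of 399.

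By the ratio used here, members varied most between libraries in M2. The ratio of the highest to the lowest of the 6 libraries, with 0.5 CPM added, had a median over members of 2.79 in M1, 5.45 in M2 and 2.87 in M3. In M2 it was 3.48 without green bean M2 replicate 3. The 0.5 CPM added narrows the ratio in low members, and 41 had an M3 median under 1 CPM. The order of M2 and M3 may in part reflect this. All 6 M1 libraries lay above all 6 M2 libraries in 81 members, where 2.3% of all 23008 genes kept for testing showed the same. All 6 M2 libraries lay above all 6 M3 libraries in 90 members, against 2.09% of all genes. Both held for 64 members (0.456% of all genes), and M1 lay wholly above M3 in 128 (4.52%). These comparisons chose the members, so nothing is read from the difference. Green bean M2 replicate 3 held the highest M2 value of 101 members and of 618 (16.0%) of the other 3863 genes with an m1 of at least 20. Without it, M1 lay wholly above M2 in 93 members in place of 81. Leaving out an M2 library can only keep or raise this number, and the share of all genes was not taken there.

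**Figure D3:**
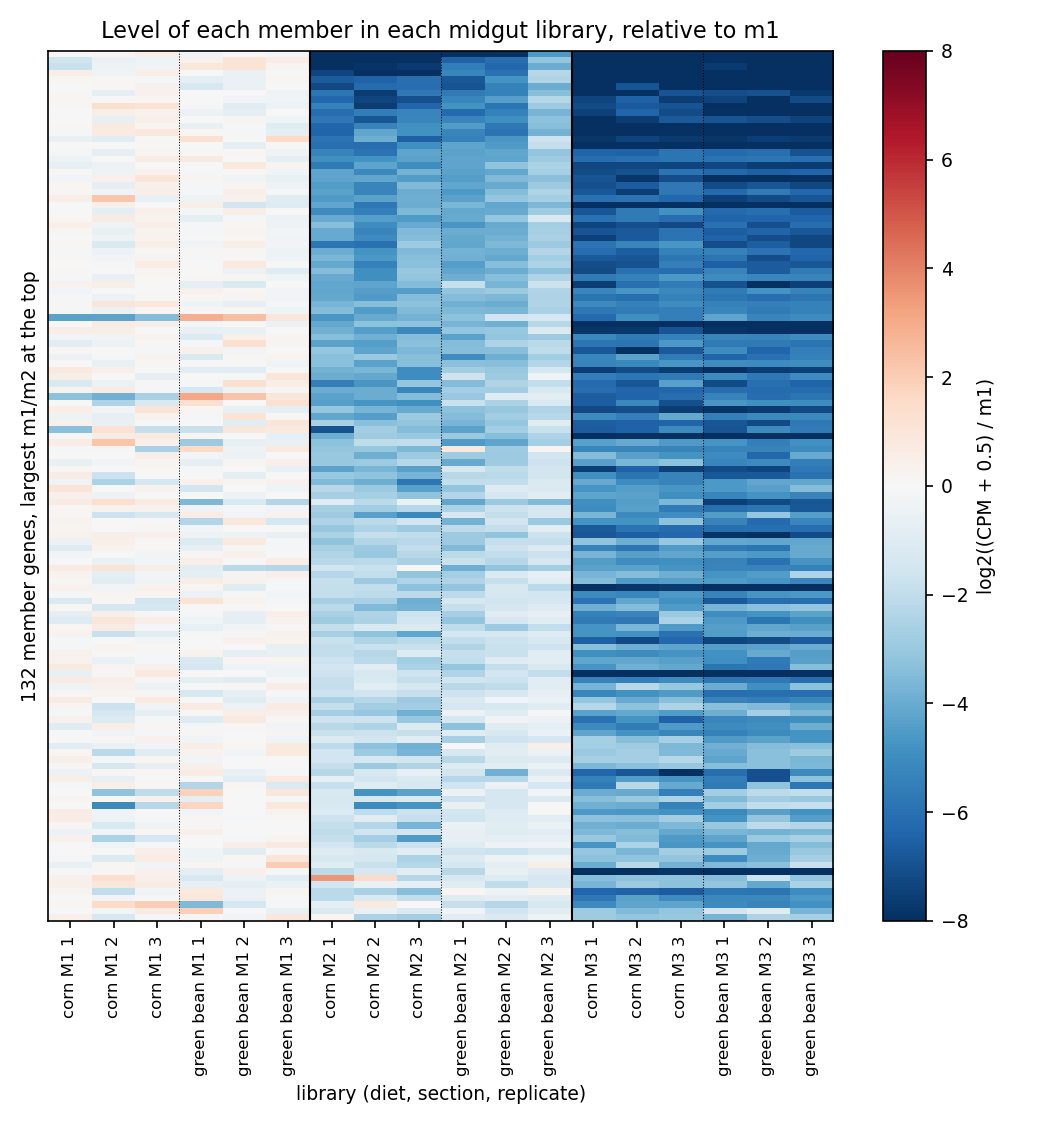
Level of each member (row, ordered by m1/m2 with the largest at the top) in each of the 18 midgut libraries (column), as log2 of CPM plus 0.5 over m1; blue is lower than m1, and colours saturate at the ends of the scale. Green bean M2 replicate 3 is the palest M2 column in most rows and holds the M2 maximum of 101 members.

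Among the 282 genes with an m1 of at least 20 and an m1/m3 above 6, the members made up 46.8%. Another 104 passed only the condition on the first step and 46 only that on the second. Green bean M2 replicate 3 held the M2 maximum of 75 of the 104 and of 19 of the 46. Whether these groups differ was not tested.

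The choice used the sum over isoforms, so the order of the sections among leading isoforms largely follows from it and is a description. The 132 members have 515 isoforms in the table, of which 391 had an M1 median of at least 1 CPM. In 35 members a single isoform reached that level and in 97 at least 2 did. Of the 302 isoforms with an M1 median of at least 5 CPM, 286 had section medians in the order M1 above M2 above M3, 3 were highest in M2, and none was higher in M3 than in M1. Of 66 members with at least 2 such isoforms of 1 CPM and an isoform of 1 CPM in M3, 51 had the same leading isoform in both sections. The division of shared reads among isoforms by the quantifier is uncertain.

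In a single member an isoform of at least 5 CPM in M3 was higher there than in M1. TRINITY_DN1688_c0_g1_i10 had M1 values from 0.0561 to 20.8 CPM with a median of 1.16, and M3 values from 0.354 to 12.2 CPM with a median of 6.10, so the sections overlapped. The leading isoform of the same gene, TRINITY_DN1688_c0_g1_i3, fell from a median of 545 CPM in M1 to 42.8 in M2 and 1.72 in M3. The largest number of isoforms with an M1 median of at least 1 CPM was 12, in TRINITY_DN1599_c0_g1. There are 8 members that form 4 pairs within one assembly component each, so reads of near-identical copies may be split between the genes of a pair.

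Whether diet changed the level of the members was asked in each section, with 3 green bean against 3 corn libraries. The choice used medians over both diets, so a gene could enter through the diet in which it was high, and neither this contrast nor that of diet with section below is independent of the choice. With the medians of each diet alone, 69 members met the conditions on both, 31 on green bean only, 22 on corn only and 10 on neither. Counts of members called are therefore printed beside the share of all genes and nothing is read from the difference. In M1, 1 member rose on green bean and none fell in edgeR's test. TRINITY_DN1599_c0_g1 had 312, 312 and 560 CPM in corn M1 and 46773, 33108 and 11731 CPM in green bean M1. The diets did not overlap, with every green bean library more than 10 times above every corn library (log2 fold change 5.74, SE 0.86, edgeR quasi-likelihood test with Benjamini-Hochberg adjustment, adjusted p = 0.0454). It entered the members through green bean, where m1/m2 was 15.5 against 0.841 on corn, so its values are a description. Of all 23008 genes tested, 0.00869% were called higher and 0.013% lower on green bean in M1. DESeq2 called 19 members (5.63% of all genes), 2 higher (3.31%) and 17 lower (2.32%). The edgeR call lies near the threshold: with 1 of the 18 libraries left out it was lost in 15 cases (adjusted p 0.0235 to 0.188) and kept without corn M2 replicate 1, corn M3 replicate 1 or green bean M3 replicate 1. The log2 fold change stayed between 5.24 and 6.14 in these fits.

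On corn the M2 values of TRINITY_DN1599_c0_g1 were 246, 371 and 453 CPM and the M3 values 82.6, 200.4 and 139 CPM, so that its corn libraries of M1 and M2 overlapped while the green bean libraries stepped down without overlap between sections. On green bean M2 held 624, 2137 and 2420 CPM and M3 324, 157 and 186 CPM. With this gene the members held 11.6% ± 1.17 of the counts in M1 on corn and 11.6% ± 1.79 on green bean (SD, n = 3 each). Without it the other members held 11.5% ± 1.15 on corn and 8.52% ± 0.0417 on green bean, with no overlap between the diets. TRINITY_DN4063_c0_g1, named after its values were seen, had a like pattern in M1. It had 11.8, 7.66 and 18.9 CPM on corn and 991, 579 and 215 CPM on green bean. The gene did not pass the test (log2 fold change 5.07, SE 0.80, edgeR adjusted p = 0.0610). It entered the members through green bean, since on corn its m1 was 12.3 and its m1/m2 was 1.64. Its values are thus a description.

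Most members lay in the other direction in M1, without passing. The median log2 fold change of the 132 was -0.57, against 0.16 for all genes tested, and 101 were below 0. With library totals in place of the trimmed mean of M-values (TMM) these medians were -0.06 and 0.52. A change of scaling moves members and other genes together, so it cannot test the difference between them, and nothing is read from it. At an unadjusted p under 0.05 there were 35 members (9.1% of all genes), 29 of them lower and 6 higher, where all genes gave 4.52% and 4.59%. There were 13 without corn M1 replicate 2, a fit for which the share of all genes at that p was not taken. Without corn replicates 2 and 3 the median of the members was -0.04, against 0.07 for all genes. TRINITY_DN321_c0_g2 had the lowest p among the lower ones, with 1289, 2029 and 1260 CPM in corn M1 and 67.1, 353 and 157 CPM in green bean M1 (log2 fold change -3.64, SE 0.73, edgeR adjusted p = 0.134). The diets did not overlap in M2 or M3 either, with 416, 188 and 548 against 45.3, 102 and 68.2 CPM in M2 and 26.1, 37.9 and 65.4 against 3.90, 4.83 and 6.41 CPM in M3.

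**Figure D4:**
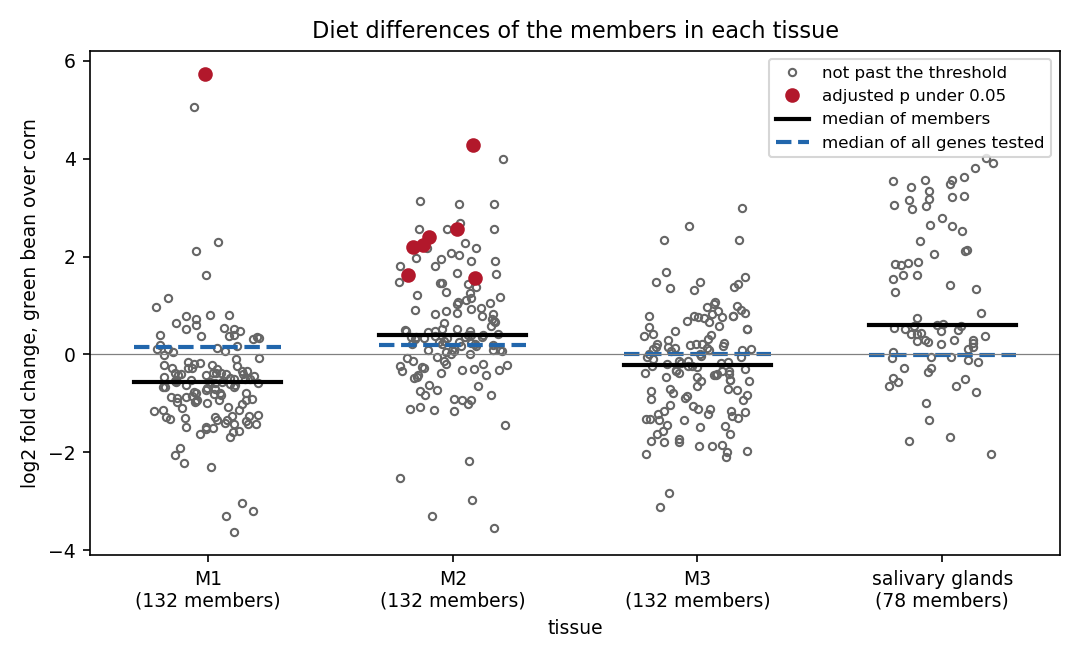
Fitted log2 fold change of green bean over corn for each member tested, by tissue; filled red points passed an adjusted p of 0.05. Black bars are medians of the members and dashed blue bars medians of all genes tested. One member passed in M1 and 7 in M2, all higher on green bean, and none in M3 or in salivary glands.

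In M2, 7 members rose on green bean and none fell in edgeR's test, where 0.161% of all genes were called higher and 0.339% lower. Of the 7, 5 had an m2/m3 under 3 on corn alone and so entered through their green bean M2 values, and 4 had an m1/m2 of at most 2 on green bean alone. TRINITY_DN107_c0_g1, named after its values were seen, was the 1 that met the conditions on both diets. Of the others, 1 met them on corn only, 2 on green bean only and 3 on neither, so their values are a description. DESeq2 called 38 members (13.8% of all genes), 32 higher (6.68%) and 6 lower (7.14%). TRINITY_DN2943_c0_g2 had 50.2, 15.6 and 18.6 CPM in corn M2 and 219, 131 and 1622 CPM in green bean M2 (log2 fold change 4.29, SE 0.77, edgeR adjusted p = 0.0303). The lowest green bean library lay above the highest corn library. The log2 fold change was 2.34 without green bean M2 replicate 3, and the call was lost without that library, corn M2 replicate 2, corn M2 replicate 3 or corn M3 replicate 2 (adjusted p 0.0520 to 0.163).

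TRINITY_DN1323_c1_g5 had 89.8, 39.0 and 26.0 CPM in corn M2 and 394, 192 and 518 CPM in green bean M2 (log2 fold change 2.57, SE 0.40, edgeR adjusted p = 0.0144). In CPM the diets did not overlap in M1 either, with 208, 261 and 330 CPM on corn and 521, 436 and 624 CPM on green bean, but the gene did not pass the test there (log2 fold change with TMM 0.38, SE 0.38, edgeR adjusted p = 0.673). The M2 call was lost without corn M2 replicate 2 or 3 or green bean M2 replicate 1 or 3 (adjusted p 0.0515 to 0.100).

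TRINITY_DN1317_c0_g1, the member with the lowest p and named for that after the values were seen, had 55.0, 43.5 and 25.05 CPM in corn M2 and 259, 187 and 318 CPM in green bean M2 (log2 fold change 2.25, SE 0.28, edgeR adjusted p = 0.00738). It was the only one of the 7 whose call held without each of the 18 libraries in turn (edgeR adjusted p 0.00441 to 0.0388). With the medians of each diet alone, its m2/m3 was 2.32 on corn and its m1/m2 was 1.86 on green bean. It thus met the conditions on neither diet, and its values are a description. The other 4 calls, chosen for naming after their values were seen, were TRINITY_DN1290_c0_g2, TRINITY_DN107_c0_g1, TRINITY_DN1077_c4_g1 and TRINITY_DN585_c1_g1, with log2 fold changes from 1.56 to 2.39. A fit without corn replicates 2 and 3 leaves 1 corn library a section, so it cannot show whether the 7 calls hold. Fitted to the 6 M2 libraries alone, 1 passed, where 0.135% of all genes did.

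Over all 132 members the median log2 fold change in M2 was 0.39, against 0.18 for all genes tested. It was -0.12 without green bean M2 replicate 3, against 0.14 for all genes, so the direction of the median rests on that library. Without corn M2 replicate 3 it was 0.93, against 0.11 for all genes, and with library totals 0.91, against 0.50. Without corn M2 replicate 1 it was 0.13, against 0.53 for all genes. The members thus lay below all genes without green bean M2 replicate 3 or corn M2 replicate 1, and nothing is read from the difference. At an unadjusted p under 0.05 there were 44 members (18.8% of all genes), 36 higher and 8 lower, where all genes gave 7.59% and 11.2%. Without green bean M2 replicate 3 there were 32, 22 higher and 10 lower, and the share of all genes was not taken for that fit. The lower member with the lowest p was TRINITY_DN23973_c0_g1, with 7.36, 6.13 and 23.5 CPM on corn and 1.00, 2.03 and 2.98 CPM on green bean (log2 fold change -3.31, SE 0.73, edgeR adjusted p = 0.0583). The log2 fold change was -1.99 without corn M2 replicate 3. The gene passed without corn M2 replicate 1 (edgeR adjusted p = 0.0156) or green bean M1 replicate 1 (edgeR adjusted p = 0.0460). It met the conditions on corn only, since its m1 on green bean was 5.15, so its values are a description.

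In M3 no member passed edgeR's test, and no gene of the table did. At an unadjusted p under 0.05 there were 29 members, where all genes gave 7.89%. Of these, 11 were higher on green bean (5.36% of all genes) and 18 lower (2.53%). DESeq2 called 15 members (3.9% of all genes). The lowest p belonged to TRINITY_DN1290_c0_g2, with 0.148, 0.0885 and 0.0369 CPM in corn M3 and 0.451, 0.442 and 1.204 CPM in green bean M3 (log2 fold change 3.00, SE 0.59, edgeR adjusted p = 0.213). Among lower members it was TRINITY_DN2773_c0_g1, with 255, 133 and 206 CPM on corn and 51.3, 46.9 and 57.4 CPM on green bean (log2 fold change -1.79, SE 0.38, edgeR adjusted p = 0.258). The diets did not overlap in either gene. With the medians of each diet alone, TRINITY_DN1290_c0_g2 met the conditions on corn only and TRINITY_DN2773_c0_g1 on neither diet. TRINITY_DN1290_c0_g2 was at most at 0.148 CPM in corn M3, so its fold change rests on few counts.

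The size of each step was also described by diet. With medians taken over the 3 libraries of a diet, m1/m2 had a median over members of 7.35 on corn and 4.36 on green bean, and m2/m3 one of 4.27 on corn and 9.13 on green bean. The first step was larger on corn in 111 members, and the second was larger on green bean in 105. Without green bean M2 replicate 3 these numbers were 103 and 101, with green bean medians of 4.71 and 7.34. They were taken for members only, so no share of all genes stands beside them. Both steps use the same M2 medians, which also had part in the choice, so the numbers are not independent. On corn the condition that failed most often was the second step, which was under 3 in 37 members, and on green bean it was the first, at most 2 in 28 members.

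No single member showed a difference between diets in a step that passed edgeR's test, and no gene of the table did for either step. For the step from M1 to M2, the interaction of diet and section had an unadjusted p under 0.05 in 34 members, where all genes gave 3.34%. In 32 of them the fall was smaller on green bean (1.4% of all genes in that direction) and in 2 it was larger (1.93%). DESeq2 called 14 members (0.356% of all genes). The median interaction over the 132 was 0.83 on the log2 scale, against -0.18 for all genes. Without green bean M2 replicate 3 it was 0.44, against -0.20 for all genes. In that fit 23 members had an unadjusted p under 0.05, and the share of all genes was not taken. For the step from M2 to M3 the number was 25 members, where all genes gave 3.82%, with a larger fall on green bean in 23 of them (1.7% of all genes in that direction) and a smaller one in 2 (2.12%). DESeq2 called 8 members (0.317% of all genes). The median interaction for this step was -0.64, against 0.10 for all genes. Without green bean M2 replicate 3 it was -0.22, against 0.13 for all genes. The interactions for the steps share the M2 libraries, so their directions are not independent.

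TRINITY_DN2773_c0_g1 had the lowest p for both steps. With the medians of each diet alone, its m2/m3 was 1.73 on corn and its m1/m2 was 1.17 on green bean. It thus met the conditions on neither diet, and its values are a description. On corn it had 3442, 2224 and 3682 CPM in M1 and 358, 447 and 283 CPM in M2. On green bean it had 2071, 1090 and 1756 CPM in M1 and 955, 1846 and 1505 CPM in M2, so that M1 and M2 overlapped. Its interaction was 2.90 on the log2 scale for the first step (SE 0.53, edgeR adjusted p = 0.504) and -3.28 for the second (SE 0.53, edgeR adjusted p = 0.274).

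In the opposite direction, TRINITY_DN1599_c0_g1 had an interaction of -4.08 for the first step (SE 1.03, edgeR adjusted p = 0.786). TRINITY_DN582_c0_g1 had one of 4.32 for the second step (SE 1.16, edgeR adjusted p = 1.00). The corn M2 libraries were far apart, with 4737, 1220 and 84.4 CPM against 174, 199 and 161 CPM on green bean. Of the corn M2 libraries, 2 lay above all 3 corn M1 libraries (518, 1070 and 547 CPM). With the medians of each diet alone, the m1/m2 of TRINITY_DN582_c0_g1 was 0.448 on corn and 1.21 on green bean. It met the conditions on neither diet, and its values are a description.

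**Figure D5:**
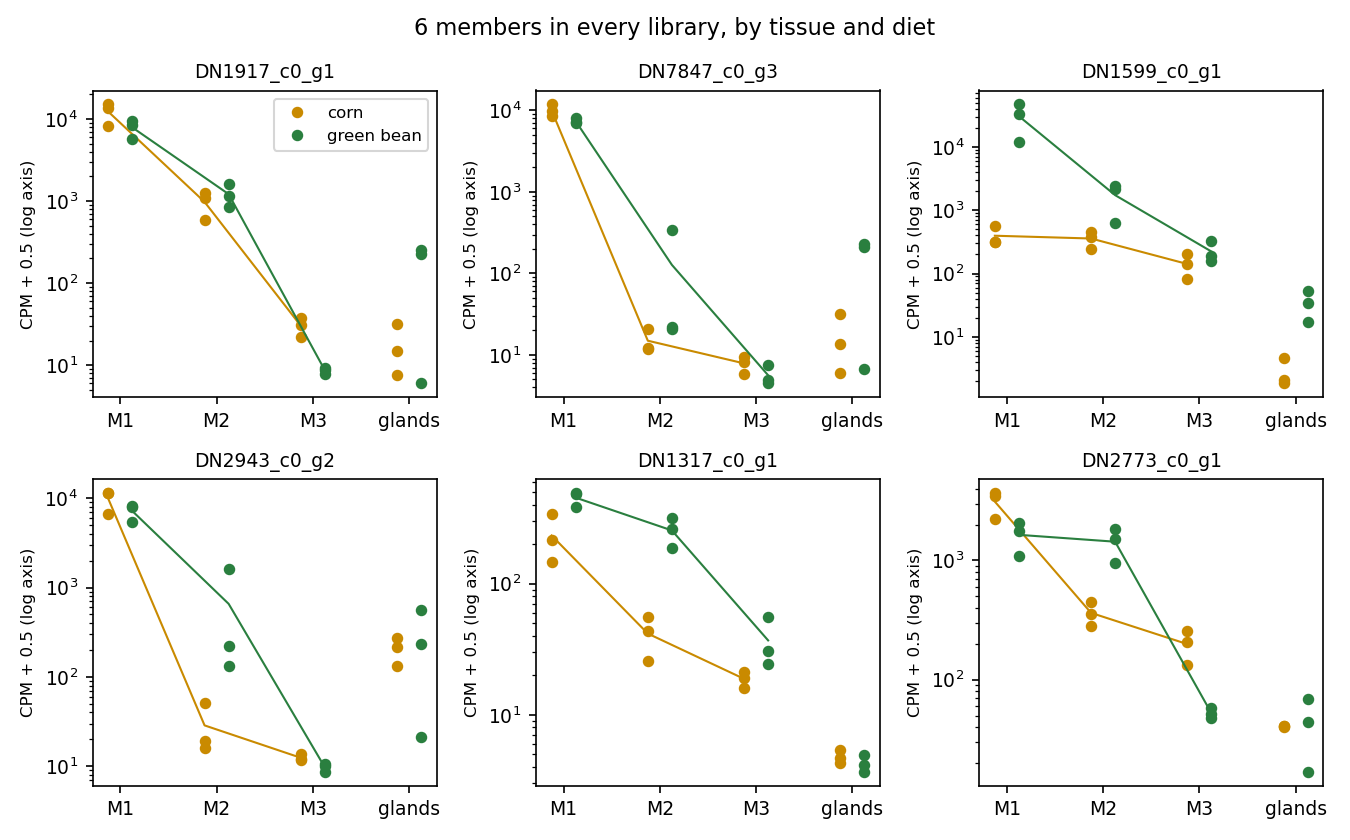
CPM plus 0.5 (log axis) of 6 members in every library, by tissue, with corn in ochre and green bean in green; lines join the means of 3 libraries in the midgut sections. TRINITY_DN1599_c0_g1 steps down from M1 to M2 on green bean, from 33108 CPM in its middle M1 library, and has overlapping M1 and M2 libraries on corn, and TRINITY_DN2773_c0_g1 has overlapping M1 and M2 libraries on green bean.

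Salivary glands, which the choice did not use, held little of most members. In the table of corn libraries, the mean of the 3 gland libraries was under 1 CPM in 77 members, from 1 to 10 CPM in 37, from 10 to 100 CPM in 15 and at least 100 CPM in 3. Among the other 3863 genes with an m1 of at least 20, 236 (6.11%) had a gland mean under 1 CPM. Among genes that passed only the condition on the first step it was 52 of 104 (50%), and among those that passed only the second 20 of 46 (43.5%), against 58.3% of the members. These differences were not tested, and the midgut levels had part in choosing each set. The gland mean exceeded the corn M3 mean in 20 members (15.2%; other genes 11.03%) and the corn M1 mean in 2 (1.52%; other genes 19.7%). It exceeded the M3 mean in 21.2% of the genes of the first-step set and 30.4% of the second-step set.

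TRINITY_DN1325_c1_g2 had the highest gland level, 750 ± 51.7 CPM against 10894 ± 1617 CPM in corn M1 (SD, n = 3 each). TRINITY_DN2943_c0_g2 followed with 205 ± 71.8 CPM in glands and 9896 ± 2739 CPM in corn M1. The members with a gland mean above their corn M1 mean were TRINITY_DN4521_c0_g1, at 186 ± 14.2 against 108 ± 55.6 CPM, and TRINITY_DN2128_c0_g1, at 73.3 ± 64.2 against 28.1 ± 2.13 CPM. The spread between libraries was wide in corn M1 for the first and in glands for the other.

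Diet was compared in the glands in their own table, where 78 of the 132 members passed the filter on low counts. None passed edgeR's test, where 0.0157% of all 12741 genes tested were called higher on green bean and 0.102% lower. At an unadjusted p under 0.05 there were 25 members, where all genes gave 10.2%, with 19 higher (5.07%) and 6 lower (5.14%). DESeq2 called 11 (3.15% of all genes). The lowest p belonged to TRINITY_DN1599_c0_g1, with 1.35, 1.58 and 4.09 CPM on corn and 52.9, 16.7 and 33.8 CPM on green bean (log2 fold change 3.92, SE 0.65, edgeR adjusted p = 0.0966). As in M1, its diets did not overlap. The lower member with the lowest p was TRINITY_DN117688_c0_g1, with 25.1, 34.0 and 16.6 CPM on corn and 9.51, 9.36 and 9.89 CPM on green bean (log2 fold change -1.33, SE 0.28, edgeR adjusted p = 0.158).

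The green bean gland libraries were not alike in the members. Their members held 0.349%, 0.138% and 0.339% of the counts in replicates 1 to 3, and those of corn glands 0.175%, 0.159% and 0.180%. With 0.5 CPM added, 22 members were at least 5 times higher in both green bean replicates 1 and 3 than in replicate 2, and none was the other way round. Among the other genes with an m1 of at least 20 there were 63 (1.63%), and among the 104 that passed only the first step 16 (15.4%). TRINITY_DN1917_c0_g1 had 255, 5.54 and 227 CPM in the green bean glands and 7.19, 14.6 and 31.0 CPM in the corn glands. TRINITY_DN7847_c0_g3 had 208, 6.22 and 227 CPM and 5.55, 13.1 and 31.0 CPM. As a percentage of its mean in green bean M1, the median member stood at 1.04% in green bean gland replicate 1, 0.128% in replicate 2 and 1.13% in replicate 3. In M2 it stood at 14.7%, 17.3% and 35.3% in the green bean libraries. The part of tissue carried over between dissected organs in these values was not tested.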

How the data were processed

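The tables that the authors deposited give, for 298322 transcripts, estimated counts that are whole numbers. The sources used here do not say how these were scaled or rounded. The submitters' processing notes name Trim Galore 0.4.4, Salmon 0.12 and DESeq2 1.20.0, without a role or order. The 3 tables (corn, glands, midgut) share corn libraries whose totals differed by at most 0.0274%, while single members differed by up to 0.28 on the log2 scale, so each test stayed within a table. Isoforms were summed to 201329 Trinity genes. Members and lists were chosen with earlier results of these data known.

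Genes were kept by filterByExpr (23008 in the midgut table, with all 132 members, and 12741 in the gland table, with 78 members), scaled by TMM and tested two-sided in R 4.3.3 with edgeR 4.0.16 (robust glmQLFit, glmQLFTest, Benjamini-Hochberg over all genes kept). The midgut fit used all 18 libraries with a mean per group, the gland fit 6. A standard error is the log2 fold change divided by the square root of F. The same code was tested on simulated counts. DESeq2 1.42.0 was an alternative. Named members are the 2 highest in m1, the largest and smallest m1/m3, those at each threshold, the extremes or lowest p of each contrast, the highest in corn glands, and the isoform cases; others are marked where named.

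No pair of replicates looked like the same library deposited again: a chi-square statistic of their counts, divided by its degrees of freedom, was 54.2 to 498. Groups share replicate numbers. Deviations from group means of same-numbered libraries of the 2 diets correlated at -0.25 to 0.17 across genes, over 0.1 in 1 of 12 pairs, so the numbers do not pair the diets. Within a diet the correlation was 0.0939 to 0.756 between M1 and M2 and 0.116 to 0.678 between M2 and M3. Same-numbered libraries of a diet thus tended to deviate together between sections. No label says whether they came from the same insects, and this was not tested. Interactions were therefore also fitted with a block per diet and number.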

Additional observations from a re-analysis of the deposited data

Results flagged for a closer look

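Green bean M2 replicate 3 stood apart from the other 5 M2 libraries, over both diets, by a gap that was larger than Dixon's criterion for 6 values. The members held 2.57% of its counts, with a gap of 0.775 of the range. TRINITY_DN7847_c0_g3 was at 339 CPM in that library (gap 0.970) and TRINITY_DN2943_c0_g2 at 1622 CPM (gap 0.874). The criterion was applied to the summed level and to the 4 members with the highest m1 or the largest m1/m3, in each of the 3 sections, and chance passes it for about 1 in 20 sets of values. In 101 of 132 members this library held the M2 maximum.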

How the results depend on the processing

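Calls of members depended strongly on the test, as did those of all genes. DESeq2 called 19 members for diet in M1, 38 in M2, 15 in M3 and 11 in salivary glands, 14 for the interaction at the first step and 8 at the second. Of all genes it called 5.63%, 13.8%, 3.9%, 3.15%, 0.356% and 0.317% in that order. With no filter on low counts edgeR called 17 (3 higher and 14 lower), 20, 18, 11, 8 and 6 in the same order, where it called 1.38%, 0.248%, 4.17%, 0.406%, 0.0325% and 0.0284% of all genes. For diet in M1, where 1 was called, DESeq2 size factors gave 2 (0.1% of all genes) and library totals 2 (0.0522%). A fit to the compared groups gave 0 (0%). For diet in M2, where 7 were called, the compared groups alone gave 1 (0.135% of all genes). Library totals gave 1 for the interaction at the second step (0.00435% of all genes). With 1 library left out and the genes of the full fit, diet in M1 gave 0 to 2, diet in M2 1 to 20, diet in M3 and both interactions 0 each, and salivary glands 0 to 1. The count in M2 was 20 without corn M2 replicate 1, where 10.4% of all genes were called, 1 without corn M2 replicate 2 or green bean M2 replicate 3, 2 without corn M2 replicate 3 or green bean M2 replicate 1, 3 without green bean M2 replicate 2 and 4 without corn M3 replicate 2. Without corn M2 replicate 2, 0.109% of all genes were called, and without green bean M2 replicate 3 0.0261%. The share was 0.117% without corn M2 replicate 3 and 0.104% without green bean M2 replicate 1. It was 0.0913% without green bean M2 replicate 2 and 0.209% without corn M3 replicate 2. The single gland call came without green bean gland replicate 2, where 0.0471% of all genes were called. The causes were not tested.

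A replicate block over all groups gave 4 members for diet in M1 (0.187% of all genes) and 10 in M2 (1.04%), although the numbers do not pair the diets. It gave 0 for M3 (0.0348% of all genes), the interactions (0% each) and the glands (0.00785%). The block per diet and number, chosen after seeing the data, called 0 members at either step (lowest adjusted p 0.0596 and 0.130).

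Of the named differences given with a fold change, 1 reversed: TRINITY_DN1323_c1_g5 in M1, which did not pass the test, had log2 fold changes from -0.0097 (without corn M1 replicate 1) to 0.60 with 1 library left out. The choice itself gave 147 to 151 members with means in place of medians, TMM-scaled totals or 0.1 CPM added, sharing 124 to 131 with the 132, and 120 to 134 with 1 library left out. Library totals moved the median log2 fold change of all genes by over 0.1, to 0.52 in M1, 0.50 in M2 and -0.14 in M3. At 3 libraries a group, differences of members under 1 CPM in M3 rest on few counts.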
